A study of Rattus norvegicus with 35 samples.

Results

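Messenger RNA of 9 genes for proteins that join epithelial cells to each other was followed in rat converted hypoblast stem cells. The genes were the cadherins Cdh1 and Cdh2, the adhesion molecule Epcam, the claudins Cldn3, Cldn4, Cldn6 and Cldn7, occludin (Ocln) and the scaffold gene Tjp1. They were chosen by name, as genes of 1 functional group, and each had 1 record among the 17198 genes and unmatched records of the deposited count table. All 9 were measured, and 7 were detected in at least 1 cell. Embryonic stem cells of the rat had been converted by culture with the factors LIF, PDGF and EGF in low fetal bovine serum, and the converted cells were taken on day 12. The labels describe 34 libraries as single cells, prepared on the C1 microfluidic system, and 1 library as a bulk population control. Cells and bulk share the culture type, the medium and the day, and no strain, line, passage or batch was given. With 1 sample on each side, no difference between cells and bulk could be tested, and SDs describe the spread among cells rather than among cultures.

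Epithelial cells hold together through adherens junctions and tight junctions. In adherens junctions, classical cadherins bind their like on the neighbouring cell and are tied to actin by catenins. In tight junctions, claudins and occludin seal the gap between cells, and scaffold proteins such as the Tjp1 product, known as ZO-1, tie them to the cytoskeleton. The primitive endoderm of rodents forms an epithelium, and its parietal derivatives are known to migrate singly over the inner surface of the trophoblast and to lose epithelial junctions as they do so. A change from Cdh1 to Cdh2 is the classical sign of a cell that leaves an epithelium.

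The cells held 6288 to 503044 reads in genes (median 266046) and 349 to 5514 genes with a read, and the bulk library held 47121 reads and 4741 genes. Levels are given as CPM, the reads of a gene scaled to the reads of its library (counts per 1000000). A single read was worth 1.99 to 159 CPM in a cell and 21.2 CPM in bulk. The threshold for detection was 5 CPM, which any read passed in the 12 cells where 1 read was worth more than that. There were 22 cells with at least 50000 reads and 3000 genes, called gene-rich here. The label of the cells was checked against 7 hypoblast markers. Of these, 6 (Gata6, Gata4, Sox17, Foxa2, Dab2 and Pdgfra) were detected in 19 to 28 cells and Sox7 in 12. Of the 101 nonzero values of the 9 genes in cells, 74.3% were even and 15 were of exactly 2 reads. Over all records, 79.9% of the nonzero values were even in bulk and 59.8% to 72.6% in the cells. In cells and in bulk, a value of 2 reads may thus stand for 1 sequenced fragment. Transcript lengths were not at hand, so levels and shares of different genes are set side by side without an order between genes.

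Cdh1, which encodes E-cadherin, was the classical cadherin of most cells. It was detected in 21 of 34 cells (61.8%, exact Clopper-Pearson 95% interval 43.6% to 77.8%) with 1181 reads in all. Its level ran from 0 to 2493 CPM, with a median of 20.4 CPM and a mean of 207 ± 470 CPM (SD over 34 cells). The highest cells were C45 (2493 CPM), C47 (1132 CPM), C38 (607 CPM), C37 (543 CPM) and C32 (510 CPM). The lowest values above 0 were 3.04 CPM in C33 and 7.17 CPM in C72. A small number of cells thus carried much of the signal: C45 alone held 35.3% of the summed CPM, and the mean without it was 138 CPM. For all genes detected in at least 17 cells, the median share of the highest cell was 18.3%.

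Detection of Cdh1 was counted in gene-rich and in other cells. It was found in 17 of the 22 gene-rich cells (77.3%, interval 54.6% to 92.2%) and in 4 of the other 12. Gene-rich cells were chosen for holding many genes, so wider detection in them is built in. Of all genes and records, 17% were found in at least 17 of the 34 cells, and 24% in that share of the gene-rich cells. No difference particular to Cdh1 is thus read. The 5 gene-rich cells without it were C10, C26, C27, C33 and C54, which held 299584 to 503044 reads, so a low read total did not accompany its absence there. The other 8 cells without it held 349 to 2312 genes. Both of the cells with the highest level were among the gene-poor ones, C45 with 2002 genes and C47 with 2777. The part of cell quality in these levels was not tested.

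Cdh2, which encodes N-cadherin, was found in few cells, and none of them held Cdh1. The 3 cells that held it (8.82% of 34, interval 1.86% to 23.7%) stood at 880 CPM in C30 (24 reads), 617 CPM in C14 (22 reads) and 105 CPM in C26 (38 reads). Single reads were also seen in C10 and C33, and the other 29 cells held no read. The mean was 47.3 ± 182 CPM and the median 0. The 3 cells with Cdh2 had 0 reads of Cdh1, while 21 cells held Cdh1 alone and 10 held neither at 5 CPM. With 0 of only 3 cells, the exact interval for the share of Cdh2 cells that also hold Cdh1 reaches 70.8%. At 1 read in place of 5 CPM, C33 held both, with 1 read of each.

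**Figure D1:**
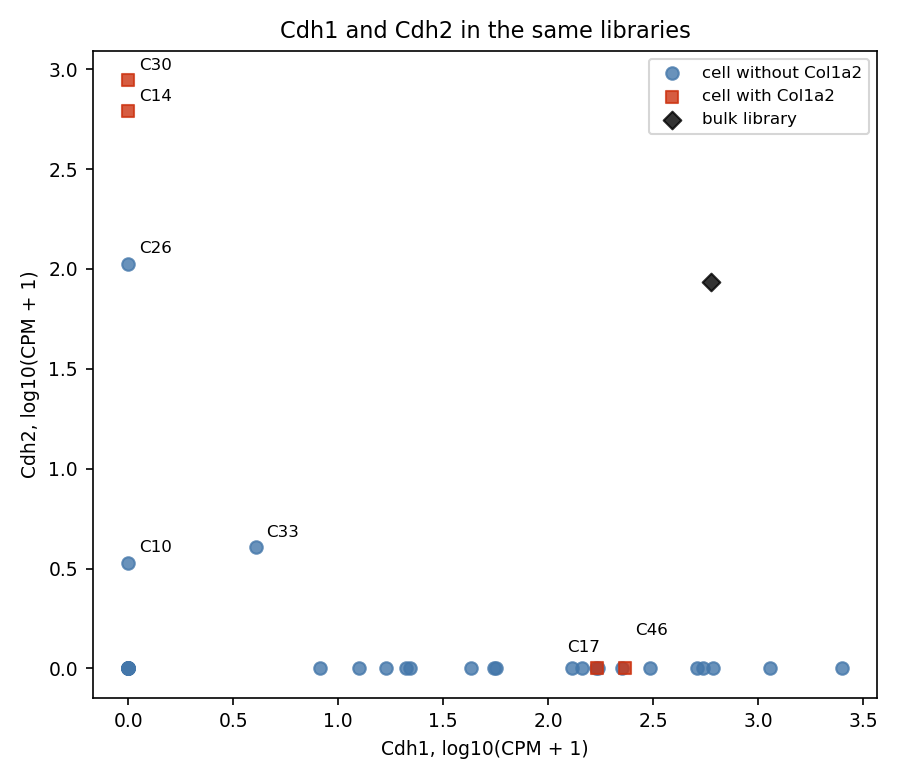
Cdh1 (x axis) and Cdh2 (y axis) in each library as log10(CPM + 1). Circles are cells without Col1a2, squares are the 4 cells with Col1a2 at 5 CPM or more, the diamond is the bulk library, and 8 cells with no read of either gene overlie at the origin. C14, C26 and C30 lie on the Cdh2 axis, the cells with Cdh1 lie on or near the Cdh1 axis, and the bulk library holds both.

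Markers of another cell type moved with Cdh2 in 2 of its 3 cells. The summed level of 7 fibroblast or feeder markers was 3083 CPM in C14 and 2969 CPM in C30, with 4 and 3 of the 7 detected. It was 0 in C26. Among the 31 cells without Cdh2 it was 0 in 26 and at most 1403 CPM, in C03. Lum and Thy1 of that list were at 0 reads in every cell. The 7 hypoblast markers summed to 112 CPM in C14, 0 in C30 and 2909 CPM in C26, against a median of 1385 CPM (range 0 to 11765) in the cells without Cdh2. Vim, the intermediate filament gene of mesenchymal cells, stood at 2831 CPM in C14, 4325 CPM in C30 and 5.53 CPM in C26. C14 and C30 were shallow, with 35681 and 27284 reads, and C26 was deep, with 361960. A list of 6 parietal endoderm markers, Sparc and Srgn among them, summed to 4708 CPM in C14, 2456 CPM in C30 and 8029 CPM in C26. Its median was 5650 CPM (range 149 to 12087) in the cells without Cdh2. Of the 6 markers, 3 were detected in C14, 2 in C30 and 3 in C26. Sparc was detected in 33 of the 34 cells and Srgn in 30, so this sum does not mark a cell type by itself. Thus C26 held N-cadherin transcripts with hypoblast markers and no fibroblast marker. C14 and C30 held them with fibroblast markers and little or no signal of the 7 hypoblast markers. They also held signal of the parietal endoderm list, which no cell lacked. The part of these markers in the Cdh2 level was not tested.

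The 4 cells with Col1a2, a fibrillar collagen gene, were split between the cadherins. C14 and C30 held Cdh2 and no Cdh1. C17 held 169 CPM of Cdh1 and C46 held 231 CPM, both with 0 reads of Cdh2. C17 and C46 had less Col1a2, at 308 and 252 CPM, than C14 (1906 CPM) and C30 (2126 CPM). Cdh11, a cadherin of mesenchymal cells named here after its values were seen, was found in C14 (1205 CPM), C30 (367 CPM) and C17 (123 CPM) and in no other cell.

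Epcam, a surface glycoprotein of epithelia and of pluripotent cells, was detected in 15 of 34 cells (44.1%, interval 27.2% to 62.1%). Its level ran from 0 to 1184 CPM, with a median of 0 and a mean of 138 ± 308 CPM. The highest cells were C39 (1184 CPM), C47 (1114 CPM), C31 (781 CPM) and C74 (556 CPM), each with fewer than 3000 genes. In the gene-rich cells it was found in 10 of 22, with 303 CPM in C15 as the highest. C74 was also the cell with the most Pou5f1, the gene of the pluripotency factor Oct4, at 1170 CPM. Pou5f1 was found in 2 further cells, of which C40 held 63.2 CPM of Epcam and C72 held none. Of the 15 cells with Epcam, 11 held Cdh1 (73.3%) and 12 held Cldn6 (80%). Taken from the other side, Epcam was found in 52.4% of the cells with Cdh1 and in 57.1% of those with Cldn6.

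Cldn6 was the claudin of most cells, Cldn4 was found in a few, and no read of Cldn3 or Cldn7 was counted. Cldn6, known in the mouse as an early claudin of embryonic epithelia, was detected in 21 of 34 cells (61.8%, interval 43.6% to 77.8%) with 1919 reads. Its level ran from 0 to 1060 CPM, with a median of 37.7 CPM and a mean of 193 ± 285 CPM. The highest cells were C40 (1060 CPM), C96 (780 CPM), C27 (724 CPM) and C33 (635 CPM), and all 4 were gene-rich. The highest cell held 16.2% of the summed CPM, and the mean without it was 167 CPM. Cldn6 was found in 17 of 22 gene-rich cells, the same number as Cdh1, and 13 cells held both. A further 8 cells held Cldn6 without Cdh1 and 8 held Cdh1 without Cldn6.

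The other claudins of the group were rare or at 0. Cldn4 was found in 5 cells (14.7% of the 34, interval 4.95% to 31.1%). It stood at 491 CPM in C38, 371 CPM in C80, 143 CPM in C13, 32.2 CPM in C39 and 6.13 CPM in C44. All 5 of these cells also held Cdh1 and Tjp1, and 4 of them held Ocln. Cdh1 and Tjp1 were each common, and with 5 cells these overlaps are a description only. Cldn3 and Cldn7 had 0 reads in the 34 cells and in bulk. A count of 0 allows 3 reads of the 8060038 in the cells, or 0.372 CPM. The exact interval for 0 of 34 cells reaches 10.3%, a limit on detection in a library and not on expression in a cell. A count of 0 in all cells was common, being found for 37.8% of all genes and records. Of the 16 further claudins measured, 11 had 0 reads in the cells, Cldn5 among them, and none was detected in 17 cells.

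Genomic neighbours were compared with the members. In the RefSeq annotation of the GRCr8 assembly, Cldn3 and Cldn4 are next to each other on chromosome 12, and Cldn4 was found in 5 cells where Cldn3 had no read. Cldn6 lies next to Cldn9 on chromosome 10. Cldn9 was detected in 8 cells, at no more than 9.95 CPM in the 6 of them that also held Cldn6. The remaining 2 cells were C17 (123 CPM) and C46 (147 CPM), which held no Cldn6 read and were among the 4 cells with Col1a2. Cldn6 and Cldn9 are related in sequence and the handling of reads that map to both is not given, so the low Cldn9 values beside Cldn6 are uncertain. Cdh1 lies next to Cdh3, the P-cadherin gene, on chromosome 19, and Cdh3 had 0 reads in cells and bulk. Ocln lies next to Marveld2, the tricellulin gene, on chromosome 2. Marveld2 was found in 5 cells, 3 of them with Ocln. Cldn9 and Marveld2 are named here after their values were seen.

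Snai1 encodes a repressor that, in the mouse, is known to bind the letters CAGGTG, a form of E-box, in promoters of epithelial junction genes, claudins and occludin among them. The RefSeq promoter windows (GRCr8, 250 bases before to 50 after the start) of Epcam, Cldn6, Cldn7 and Ocln are shown because they hold this motif and cover a widely detected claudin, a claudin at 0 reads, and the Epcam and Ocln genes. Letters run 5′ to 3′, and capitals mark CAGGTG or its reverse complement CACCTG.
Epcam (chr6:12649629-12649928, minus strand): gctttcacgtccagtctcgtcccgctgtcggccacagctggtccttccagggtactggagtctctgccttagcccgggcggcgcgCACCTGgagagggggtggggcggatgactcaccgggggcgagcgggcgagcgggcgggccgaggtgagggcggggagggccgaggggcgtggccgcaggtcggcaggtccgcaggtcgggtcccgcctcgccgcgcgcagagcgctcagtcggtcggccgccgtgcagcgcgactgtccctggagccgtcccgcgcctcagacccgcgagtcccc
Cldn6 (chr10:13215558-13215857, plus strand): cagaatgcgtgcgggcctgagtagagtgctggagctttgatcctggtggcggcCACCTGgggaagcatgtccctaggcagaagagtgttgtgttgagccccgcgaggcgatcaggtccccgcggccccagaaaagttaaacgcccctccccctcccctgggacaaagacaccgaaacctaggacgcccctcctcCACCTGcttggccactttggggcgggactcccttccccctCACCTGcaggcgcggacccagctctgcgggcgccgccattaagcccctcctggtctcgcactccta
Cldn7 (chr10:55188420-55188719, plus strand): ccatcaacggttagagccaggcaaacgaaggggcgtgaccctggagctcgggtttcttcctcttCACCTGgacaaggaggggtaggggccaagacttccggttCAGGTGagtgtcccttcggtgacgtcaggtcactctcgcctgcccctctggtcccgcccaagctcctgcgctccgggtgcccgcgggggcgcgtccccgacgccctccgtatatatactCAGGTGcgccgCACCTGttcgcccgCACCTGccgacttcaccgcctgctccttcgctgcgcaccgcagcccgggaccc
Ocln (chr2:33441149-33441448, minus strand): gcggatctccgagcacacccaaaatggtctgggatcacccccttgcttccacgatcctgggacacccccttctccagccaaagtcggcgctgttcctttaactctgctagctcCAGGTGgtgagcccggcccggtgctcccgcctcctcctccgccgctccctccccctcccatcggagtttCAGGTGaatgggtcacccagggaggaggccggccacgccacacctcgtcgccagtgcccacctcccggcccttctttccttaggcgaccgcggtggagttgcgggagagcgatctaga
The window of Cldn7 held 5 matches, that of Cldn6 held 3, that of Ocln 2 and that of Epcam 1, none of them overlapping. Over all 33469 promoter windows of the same length, 18.8% held at least 1 match on either strand. Those windows had a median of 51.7% G and C and 7 CG pairs, less than each member window with a match. The share of 18.8% is thus not a matched background, and no excess of the motif is read. The GATA letters AGATAA or TTATCT, found in 11.6% of all windows, were in none of the 6 member windows in the table. CAGGTG or its complement was in 5 of these 6, Cldn3 (1 match) included and Tjp1 not. The Tjp1 window held 33.7% G and C and 2 CG pairs, against 58% to 75.7% and 16 to 40 pairs in the other 5. Whether it covers the start used in these cells was not tested, so its lack of a match is not read. Cdh1, Cdh2 and Cldn4 were not matched in the table. A match is a description of the letters and not of binding. Thus a gene detected in 21 cells and a gene with no read both carried several matches.

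Snai1 itself was found in cells with and without these transcripts. It was detected in 14 cells, the highest being C09 (502 CPM), C37 (288 CPM) and C47 (219 CPM). Cdh1 was detected in 9 of these 14 cells (64.3%), Epcam in 9 (64.3%), Cldn6 in 11 (78.6%) and Ocln in 6 (42.9%). Over all cells, the shares were 61.8% for Cdh1, 44.1% for Epcam, 61.8% for Cldn6 and 41.2% for Ocln. A link between Snai1 and these genes was not tested. C37 and C47 were among the 5 cells with the most Cdh1, and C09 held none. Snai2 had 0 reads in every cell. C09 also held 2465 CPM of Twist2 (157 reads), a mesenchymal factor, and 1931 CPM of Vim, with 31.4 CPM of Cldn6 and 345 CPM of Tjp1. Snai1 and Twist2 are named after their values were seen.

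Ocln and Tjp1 were found in 14 and 17 cells, with a few cells holding most of the signal. Ocln, a membrane protein of the tight junction strand, was detected in 14 of 34 cells (41.2%, interval 24.6% to 59.3%). Its level ran from 0 to 559 CPM, with a median of 0 and a mean of 57.8 ± 121 CPM. Its highest value was 559 CPM, in C38 (212 reads), the cell that also held the most Cldn4. The next highest, 318 CPM in C94, rested on 2 reads in the shallowest library. Then followed C05 (250 CPM), C32 (235 CPM), C15 (161 CPM) and C44 (159 CPM), which were all gene-rich.

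Tjp1 was detected in 17 of 34 cells (50%, interval 32.4% to 67.6%), with a median of 4.95 CPM and a mean of 121 ± 398 CPM. Its level ran from 0 to 2182 CPM. The signal was concentrated: C47 held 2182 CPM, which was 52.9% of the summed CPM, followed by C45 (874 CPM) and C09 (345 CPM). The mean without C47 was 58.8 CPM. C47 and C45 were also the cells with the second highest and highest Cdh1, and they held the most Krt18, a keratin gene, at 2200 and 3659 CPM. Of the partner keratin gene Krt8, C47 held 2419 CPM and C45 had 0 reads. Both keratins are named after their values were seen. Both were gene-poor, with 109541 and 61770 reads. Tjp1 is a long gene with many annotated transcript records in RefSeq, and 1 of them is in the table. How reads of the other forms were counted is not given.

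Cells differed in which of the 9 genes they held. All but 1 cell held at least 1 member, and 12 cells held 4 or more. C44 held 6, and C13, C38, C39, C43 and C80 held 5 each. C88, with 12750 reads and 445 genes, held none. Cdh1, Epcam and Cldn6 occurred together in 8 cells, all gene-rich (C05, C13, C15, C24, C37, C40, C43 and C44). Cdh1 with Cldn6 but no Epcam was found in 5 cells, Epcam with Cldn6 but no Cdh1 in 4, and Cdh1 with Epcam but no Cldn6 in 3. Cdh1 alone of these was found in 5 cells and Cldn6 alone in 4. Of the 5 cells with none of the 3, C14 and C30 held Cdh2, C54 held Tjp1, C94 held 2 reads of Ocln and C88 held no member. Between the number of members in a cell and its number of genes, Spearman's rho was 0.31 over 34 cells and 0.20 over the 22 gene-rich cells. These points share a culture and differ in depth, and both values are weak.

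**Figure D2:**
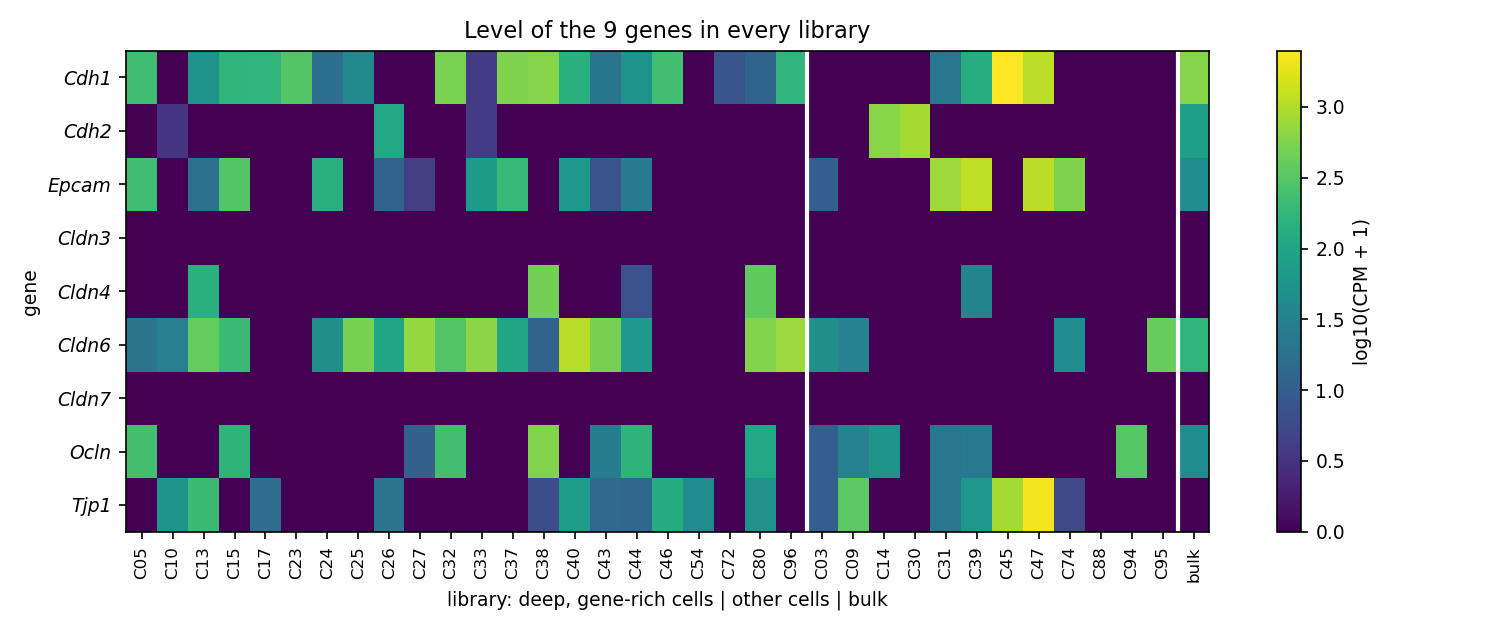
Level of each of the 9 genes (rows) in each library (columns) as log10(CPM + 1), from 0 (dark) to the highest value (yellow). The 22 gene-rich cells stand on the left, the other 12 cells in the middle and the bulk library on the right. Cldn3 and Cldn7 are at 0 throughout, Cldn6 and Cdh1 fill most of the left block, and the highest Cdh1, Epcam and Tjp1 values lie in the middle block.

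Rank correlations between members were computed across cells. Over the 22 gene-rich cells, Spearman's rho between Cdh1 and Epcam was 0.01, between Cdh1 and Cldn6 −0.17, and between Epcam and Cldn6 0.28. The highest values among members were 0.42 for Cldn4 with Ocln and 0.37 for Cldn4 with Tjp1. The value furthest from 0 was −0.51 for Cdh1 with Cdh2, where Cdh2 had reads in 3 of these cells (C26, C10 and C33), of which C10 and C33 held 1 read each. These are descriptions over cells with many zeros. The genes most like each member in these cells, among 4507 genes detected in at least 10 of them, were Slf1 (rho 0.77), Vdac3 and Mrpl23 for Cdh1. For Epcam they were Mfsd1 (0.80), a record without a symbol, and Man1a2. For Cldn6 they were Zmiz2 (0.73), Erlin1 and Rbms2, and for Tjp1 Zfp54 (0.61), Cox20 and Fahd1. No member was among the 3 genes most like another member. The genes named were picked as the highest among 4507 over only 22 cells. A high rho is thus partly built in, and no shared regulation is read from it. The other members were detected in too few of these cells for this ranking.

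The bulk library showed Cdh1 above the mean of the single cells. Cdh1 stood at 594 CPM in bulk (28 reads, exact Poisson 95% interval 395 to 859), 2.86 times the mean of the cells (1.90 to 4.14, from the bulk reads alone). Only C45, C47 and C38 were above the bulk level, and 31 cells were below it. Without C45, the bulk was 4.30-fold the cells' mean. These intervals treat reads as independent, and amplified copies make them too narrow. In a bulk library, more cells with Cdh1 and more of its RNA per cell cannot be told apart.

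The other members with a bulk read differed less, or with little precision. Cldn6 stood at 170 CPM in bulk (8 reads), and the cells' mean was 1.14-fold that level (interval 0.577 to 2.63). Ocln had 2 bulk reads, and its cells' mean was 1.36-fold the bulk (0.377 to 11.2). Epcam also had 2 bulk reads, and its cells' mean was 3.25-fold the bulk, with an interval of 0.901 to 26.9 that includes equal levels. For the gene-rich cells alone its log2 ratio was 0.17, against 1.68 for all cells. Cdh2 had 4 bulk reads and a bulk level of 84.9 CPM, 1.80 times the mean of the cells (0.489 to 4.60) and 3.85 times the mean without C30. Without the 4 cells with Col1a2, the log2 ratio of cells to bulk for Cdh2 was −4.20, against −0.83 with them. The bulk library itself held Col1a1 at 828 CPM and Col1a2 at 849 CPM, and no such cells could be left out of it. The value of −4.20 thus compares unlike mixtures and is not read as an excess in bulk. Tjp1 had no bulk read, so no fold is given. Its cells' mean of 121 CPM was above the bulk floor of 3 reads, or 63.7 CPM. It was also above 78.3 CPM, the exact Poisson upper limit for 0 reads. Both limits treat reads as independent and are too low if 2 reads stand for 1 fragment. Without C47 the Tjp1 mean was under the floor. Cldn4 had no bulk read and a cells' mean of 30.7 CPM, under the floor, so no fold is given.

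Set against all genes, these differences were common. On log2 of CPM with 1 CPM added to both levels, the value for 3 of 7 members compared (Epcam, Cldn4 and Tjp1) was past 2-fold in favour of the cells, as it was for 53.4% of 9023 genes. For Cldn4 and Tjp1, which lacked a bulk read, that value depends on the CPM added and is no measured fold. Cdh1 alone was past 2-fold in favour of bulk, as were 21.9% of genes. Among the 4741 genes with a bulk read, 11.2% were past 2-fold in favour of the cells and 41.7% in favour of bulk, and 1 of 5 members was in each direction. The 7 members had a median log2 ratio of 0.44, and all genes compared had one of 1.61. It was 0.18 for the 5 members with a bulk read and −0.66 for all genes with one.

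**Figure D3:**
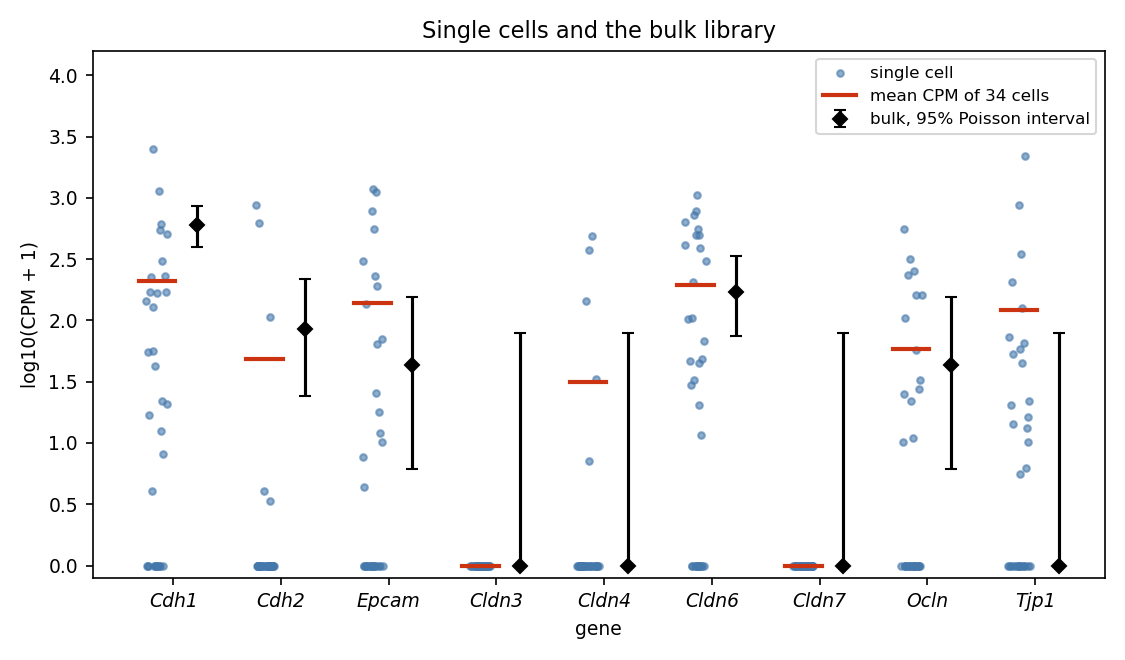
Level of each of the 9 genes (x axis) as log10(CPM + 1). Points are the 34 single cells, red lines are log10 of their mean CPM + 1, and diamonds are the bulk library with exact Poisson 95% intervals. The bulk level of Cdh1 lies above the cells' mean line and its interval does not reach it, while the intervals of Cldn6, Ocln and Cdh2 span their mean lines.

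Some cytoplasmic partners of the cadherins were found in most cells and others in few. Of 11 measured catenins, nectins and linked proteins, 5 were detected in at least 17 cells, where 17% of all genes and records and 3 of the 9 members (Cdh1, Cldn6 and Tjp1) were. Ctnna1, the α-catenin that links cadherins to actin, was found in 30 cells at 380 ± 483 CPM. Ctnnb1, for β-catenin, was found in 27 cells at 222 ± 310 CPM. Vcl (vinculin) was found in 26 cells, Jup (plakoglobin) in 22 and Afdn (afadin) in 21. Ctnnd1, the p120-catenin that binds cadherins directly, was found in 15 cells, Ctnnbip1 in 6, Ctnna2 in 4 and Vezt in 3, and these 4 are named after their values were seen. All 21 cells with Cdh1 held Ctnna1 and Ctnnb1, and 15 of them held Jup. Ctnna1 and Ctnnb1 were also found in 9 and 6 cells without Cdh1. In bulk, Jup stood at 488 CPM, 2.28 times the mean of the cells (1.44 to 3.41), and the intervals of Ctnna1, Ctnnb1, Vcl and Afdn included equal levels.

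The other junction lists are small, and their counts stand beside 17% of all genes and records in at least 17 cells and 37.8% with 0 reads in the cells. Of 13 tight junction scaffold and membrane genes, F11r, which encodes the adhesion molecule JAM-A, was found in 26 cells at 427 ± 1031 CPM, and Amotl2, which encodes an angiomotin-family protein, in 24 cells. No other gene of that list reached 17 cells. The F11r mean was 257 CPM without C03. F11r was found in 12 of the 14 cells with Ocln. Of 11 polarity genes, Pard6b was found in 28 cells and Dlg1 in 19, and Pard6a had 0 reads. Of 5 measured desmosome genes none was found in 17 cells. Gja1, the gap junction gene for connexin 43, was found in 30 cells at 1653 ± 2963 CPM, and 1 of 5 gap junction genes reached 17 cells. Of 11 further cadherins measured, none reached 17 cells and 7 had 0 reads in the cells, Cdh3 and Cdh5 among them. Cdh5, the VE-cadherin gene of endothelium, had 4 bulk reads, or 84.9 CPM, the same as Cdh2.

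Regulators of the epithelial state and mesenchymal genes were counted in the same way, against the 17% of all genes and records found in at least 17 cells. Of 11 epithelial regulators and surface proteins, only Spint2, a protease inhibitor of epithelia, was found in at least 17 cells (20 cells, 48.7 ± 64.8 CPM). None of 6 measured repressors of epithelial genes reached 17 cells. Of 7 mesenchymal genes, 3 did: Acta2, smooth muscle actin, in 32 cells, Vim in 28 and Fn1, fibronectin, in 25. Fn1 was 2.85-fold higher in bulk than in the cells' mean (interval 2.31 to 3.49). Vim was found in cells with Cdh1 too, such as C17 (1830 CPM) and C46 (1510 CPM). Both were among the cells with Col1a2. Their 7 hypoblast markers summed to 61.5 CPM in C17 and 62.9 CPM in C46, against a median of 1385 CPM in the cells without Cdh2.

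**Figure D4:**
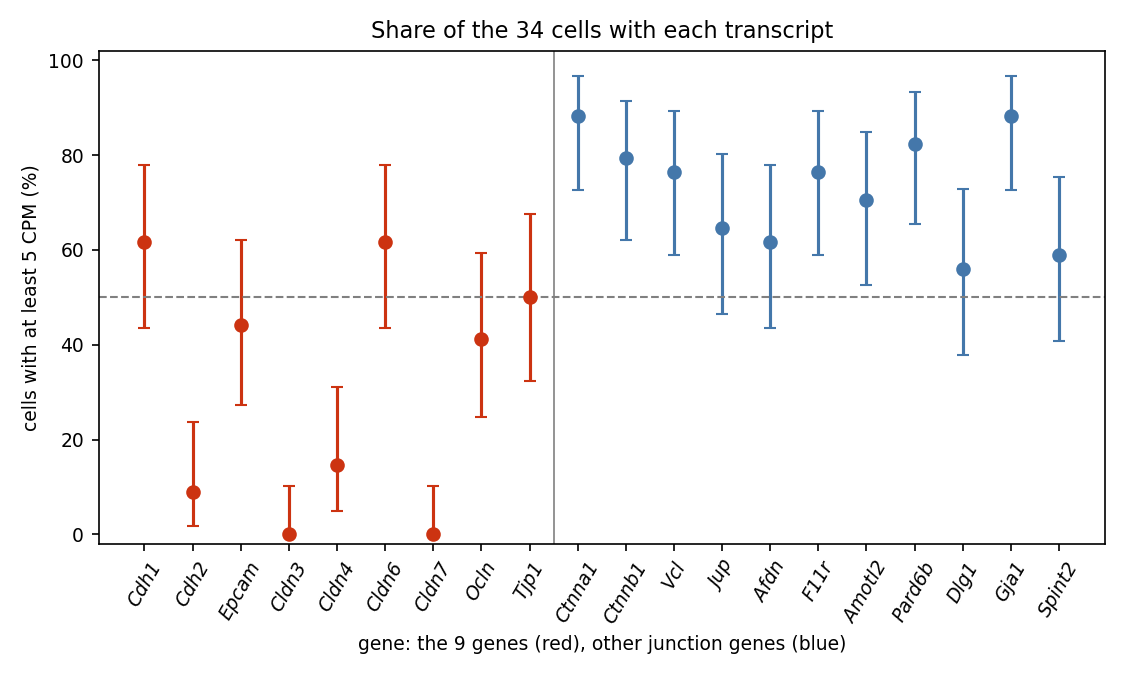
Percent of the 34 cells with at least 5 CPM of each gene, with exact Clopper-Pearson 95% intervals. Red points are the 9 genes, blue points are other junction genes, shown because they were found in at least 17 cells, and the dashed line marks 17 of 34 cells. Cdh1 and Cldn6 lie at 61.8%, Tjp1 lies on the line, and Cldn3 and Cldn7 are at 0. Shares also depend on transcript length, so the order of genes is not read.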

How the data were processed

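Messenger RNA was measured in 34 single-cell libraries and 1 bulk library of 1 culture type. The authors deposited whole-number read counts per RefSeq record in 1 table. The submitters' processing notes name TopHat2 and the build rn5. The counter, the annotation and the handling of reads with several matches were not given in the sources used here. The labels mention no molecular identifiers. Of 17201 records, 16215 were matched by identifier to a symbol in a RefSeq table of the GRCr8 assembly and summed per symbol, and the other 986 stayed in the totals. None of 561 pairs of cells had identical counts.

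Counts were scaled to CPM by column totals with Python 3.11.15 and pandas 2.3.3. TMM factors came from edgeR 4.0.16 and served as an alternative. Shares carry exact Clopper-Pearson and reads exact Poisson 95% intervals (scipy 1.17.1), which cover counting error only. With 1 sample per group no test was possible. Cells and bulk were compared for genes whose 2 levels averaged 1 CPM or more, with a pseudocount of 1 CPM. The ratio step was tested on simulated counts. The ranking step was checked with a noisy copy of the Cdh1 profile added to the real data. Thinning was checked on the real counts for its totals and bounds. No cell was removed and no doublet caller was run.

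The members and gene lists were chosen with earlier results of these data known. The text names all 9 members and, from each further list, up to 6 genes detected in at least 17 cells, with defining genes at 0 reads. For members found in at least 10 gene-rich cells it names the 3 genes most like them. Alternatives covered the detection threshold, thinning to 40000 reads, scaling, the median over cells, the pseudocount, the filter on low values, and leaving out cells.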

Additional observations from a re-analysis of the deposited data

How the results depend on the processing

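The number of members found in at least 17 of 34 cells, or in that share of fewer cells, was 3, and it was 0 at 50 CPM. It was 2 after thinning each of the 30 deep enough cells to 40000 reads and 2 when at least 3 reads were also required, an alternative chosen after the data were seen, both without Tjp1. It was 4, with Epcam, without the cells with Col1a2. Of all genes and records, 17% were found that widely in the main setting and 8.23% at 50 CPM. The share was 14.2% after thinning, 13.3% with at least 3 reads and 17.9% without the cells with Col1a2. The changes in the number of members are thus not read as particular to junction genes. The number of cells with both Cdh1 and Cdh2 was 0 except at 1 read, where it was 1. The number of members past 2-fold between cells and bulk was 4 to 6. Epcam turned from higher in the cells to a log2 ratio of −5.44 with the median over cells, which is 0 for a gene found in fewer than 17 cells. With the median the ratios of Cldn6 and Ocln, neither past 2-fold with the mean, were −2.14 and −5.44. The Epcam ratio stayed within its interval in the other alternatives run, though with gene-rich cells only it was no longer past 2-fold. The Cdh1 ratio was −4.80 to −1.42 and below 0 in all 8 alternatives. The log2 ratio of Cdh2 was −0.83 with all cells, −4.20 without the cells with Col1a2 and −3.84 for gene-rich cells. The last 2 values leave cells out of the cells' mean only, against an unchanged bulk level that also held Col1a2. With a minimum mean of 10 CPM, 34.8% of genes were past 2-fold in favour of the cells and 30.6% in favour of bulk, and with any read 49.1% and 18.3%. Depth limits the bulk values: 2 members had 2 reads there and 4 had none. No paired analysis was possible because there is 1 bulk library and the labels give no replicate numbers.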
